A study of Mus musculus with 9 samples.

Results

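The cofilin genes Cfl1 and Cfl2, the gene for actin-depolymerizing factor (Dstn) and the genes for the enzymes that switch these proteins off and on were followed in testis RNA from mice with and without Pfn3. The group was listed by name and holds 10 genes, namely the cofilin/ADF genes Cfl1, Cfl2 and Dstn, the kinase genes Limk1, Limk2, Tesk1 and Tesk2, and the slingshot phosphatase genes Ssh1, Ssh2 and Ssh3. Of these 10 genes, 9 had a row among the 38674 genes of the expression table, and Tesk2 was not analysed here. The samples were testes of male C57BL/6 mice, 3 with 2 intact Pfn3 alleles (Pfn3+/+, WT), 3 with 1 mutated allele (Pfn3+/-, Het) and 3 with both alleles mutated (Pfn3-/-, KO). Pfn3 encodes a testis-specific profilin, a small actin-binding protein, and its alleles were CRISPR/Cas9 deletions present in the whole animal. The study used sexually mature males throughout. Which of its deletion lines gave these RNAs, and the age of each of these mice, were not given in the sources used here.

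Proteins of the cofilin/ADF family bind actin filaments, sever them and speed the loss of actin from their ends. LIM kinases and TES kinases phosphorylate them near the amino terminus, on the serine of codon 3, and the phosphorylated protein no longer binds actin well. Slingshot phosphatases remove this phosphate and restore the activity. In the testis, actin filaments lie at Sertoli cell junctions and beneath the growing acrosome of spermatids, and Tesk1 was named for its high level in testis. RNA levels do not show how much of each protein is phosphorylated.

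The target of these kinases and phosphatases can be read at the start of the 3 coding sequences. Their first 30 bases are shown because they hold the codon on which both groups of enzymes act. Capitals mark codon 3, which encodes serine in each gene.
Cfl1: atggccTCTggtgtggctgtctctgatggt
Cfl2: atggcaTCTggagttacagtgaatgatgaa
Dstn: atggccTCAggagttcaggttgcggatgaa
The sequences come from the GENCODE vM21 transcripts (GRCm38), read 5′ to 3′. Cfl1 and Cfl2 use the codon TCT and Dstn uses TCA. The coding sequences have 501, 501 and 498 bases, and over their whole length Cfl1 and Cfl2 were identical at 71.9% of aligned bases, Cfl1 and Dstn at 69.0% and Cfl2 and Dstn at 67.3%. None of the 451 stretches of 50 bases in the last 500 bases of each transcript, where 3′ reads begin, was shared in the sense direction with another gene for any of the 10 genes.

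Between 3375546 and 4287335 reads per sample were counted on genes, and levels are given as normalized counts, for which the authors divided the counts of each sample by its size factor. A count of 3 reads corresponded to 2.58 to 3.71 normalized counts. QuantSeq reads mark the 3′ end of each transcript, so levels do not scale with transcript length. WT replicate 1 stood apart, with the highest value of the 9 samples in 25.5% and the lowest in 28.6% of 14865 genes. Het replicate 1 (16.8% and 15.3%) and KO replicate 2 (16.3% and 15.4%) came next. No other sample was above 8.78% and 8.66%. Pfn3 itself had 592, 383 and 373 normalized counts in WT, 136, 339 and 326 in Het and 74.7, 215 and 279 in KO. Each KO sample was below each WT sample (log2 fold change −1.41, SE 0.52, limma adjusted p = 0.610), while KO and Het overlapped and counts remained in all 3 KO samples. The study itself checked the deletion of Pfn3 in its mice by qRT-PCR, western blot and immunostaining, and reported it as established. Nothing in the labels says whether the samples of a genotype are separate animals, so p-values measure only the spread between these samples. In whole testis, fewer cells of a type and less RNA per cell cannot be told apart.

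In WT testis the members spanned a wide range. Ssh2 was at 1466 ± 251 normalized counts (SD, n = 3), above 96.9% of the 14865 genes. Cfl2 followed at 321 ± 29.0 and Dstn at 271 ± 113, and these neighbours overlapped within WT. The kinases were lower, with Tesk1 at 121 ± 33.2, Limk1 at 72.5 ± 31.8 and Limk2 at 33.2 ± 7.03. Ssh1 lay among them at 50.6 ± 8.46. The ranges of Tesk1 and Limk1, and those of Limk1 and Ssh1, also overlapped within WT. Cfl1, the non-muscle cofilin of most tissues, was the lowest detected member at 15.3 ± 3.94, above 15.2% of genes. Ssh3 was listed at 0 in all 9 samples, which by counting error alone allows up to 3 reads in each.

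**Figure D1:**
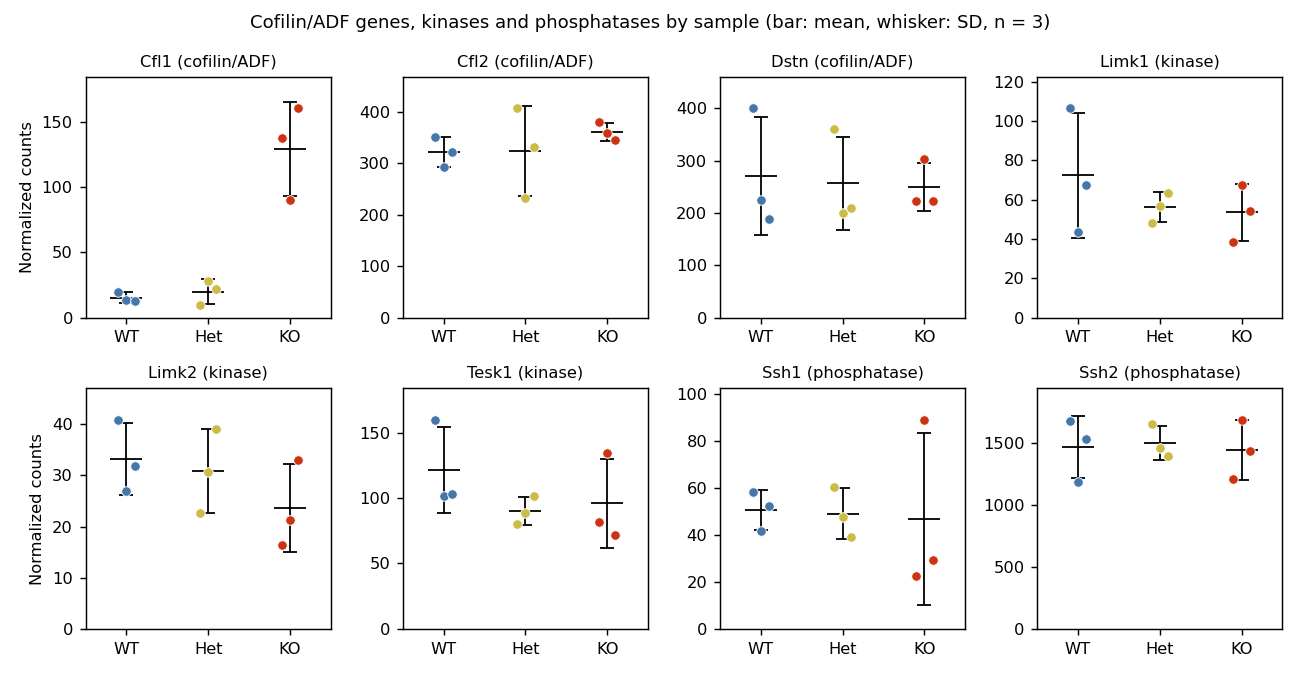
Normalized counts of the 8 detected genes in each of the 9 samples (points), by genotype, with the mean as a bar and the SD as a whisker (n = 3); each axis starts at 0. Cfl1 was at 90.0 or more in each KO sample and at 27.9 or less in each other sample, while the genotypes overlapped for the other 7 genes.

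The comparison of KO with WT asks how loss of both Pfn3 alleles changed these RNAs. Cfl1 had 19.8, 13.5 and 12.6 normalized counts in WT and 137, 90.0 and 160 in KO. These values rest on 16, 14 and 13 reads in WT and on 160, 93 and 179 reads in KO. Each KO sample was above each WT sample, and the lowest KO value was well clear of the highest WT value. The log2 fold change was 2.98 (SE 0.32, 95% interval 2.21 to 3.76), or 7.91-fold on the scale of log2(normalized count + 1), on which changes from a low count come out smaller than they are.

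A gene was called if it was past both cutoffs, 0.05 for the adjusted p-value and 1.5 for the size of the log2 fold change. The difference in Cfl1 was past the second cutoff but not the first (limma adjusted p = 0.0993, unadjusted p = 6.98e-05). None of the 8 members tested was called in that test, in which 5 of 14223 genes (0.0352%) were. Cfl1 was the only member with an unadjusted p-value under 0.05, a level that 8.07% of all genes reached, and the only one without overlap between the 2 genotypes, as were 19.9% of all genes. By size, Cfl1 ranked 77 of 14223. Run on the recovered reads, DESeq2's Wald test called Cfl1 (adjusted p = 8.26e-09), as it did 0.531% of the genes it tested, and limma called it without WT replicate 1 (adjusted p = 0.0273), where 55 genes were called. With each of the other 5 samples left out in turn, the limma adjusted p of Cfl1 was 0.179 to 0.408, and edgeR on the recovered reads gave 0.116. The study picked Cfl1 from these same libraries, so its direction here is not independent evidence. By qRT-PCR the study also reported higher Cfl1 in KO, and by western blot more CFL1, CFL2 and ADF protein. Of these proteins, CFL1 and CFL2 were reported as raised in Het too. Protein was not measured in these libraries.

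The Het samples tell whether 1 intact allele was enough for the WT level. Cfl1 had 9.45, 27.9 and 22.2 normalized counts in Het, from 10, 30 and 21 reads. Het and WT overlapped, with the lowest value of all in Het replicate 1 and the next 2 Het values above each WT value. The log2 fold change of Het against WT was 0.26 (SE 0.49, limma adjusted p = 0.874), with a 95% interval from −0.94 to 1.46. That interval holds lower and higher levels than in WT, so a difference between Het and WT was neither shown nor set aside.

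KO against Het gave nearly the size of KO against WT. Each KO sample was above each Het sample, with a log2 fold change of 2.72 (SE 0.44, 95% interval 1.65 to 3.80), or 6.61-fold. The limma adjusted p was 0.444, and the unadjusted p was 0.000742. Again none of the 8 members was called, against 8 of 14343 genes (0.0558%), and Cfl1 alone had an unadjusted p-value under 0.05 (3.56% of all genes) and no overlap (10% of all genes). DESeq2 called Cfl1 in this comparison too (adjusted p = 8.97e-05), with 0.269% of the genes it tested. Both comparisons use the same KO samples and are not independent of each other.

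**Figure D2:**
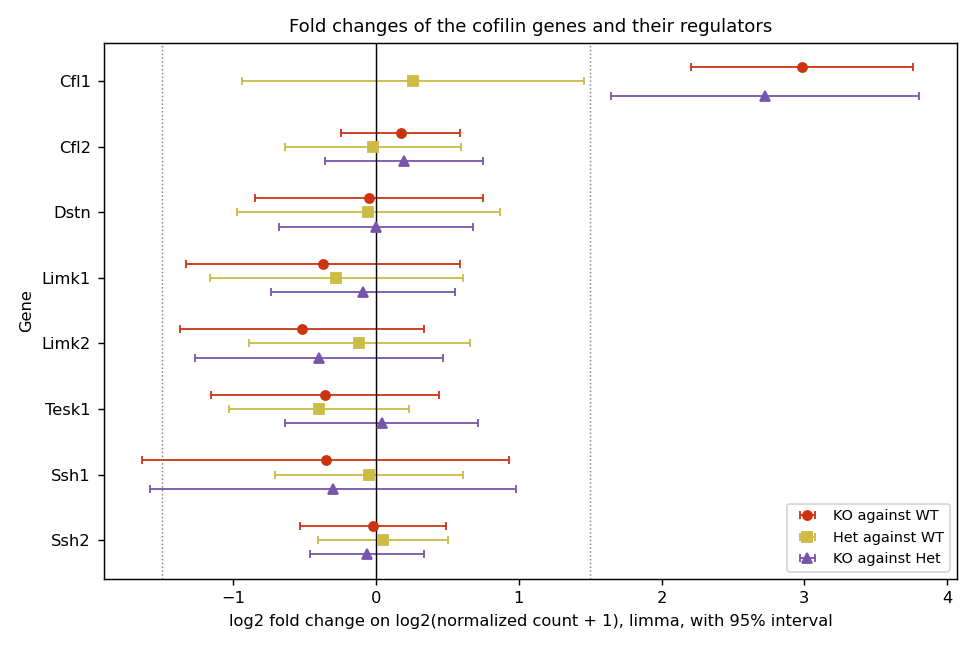
Log2 fold changes (x axis, on log2(normalized count + 1)) with 95% intervals for the 8 genes tested (y axis), for each pair of genotypes; dotted lines mark the cutoff of 1.5 in either direction. The intervals of Cfl1 lie above 1.5 in both comparisons with KO, and the intervals of the other 7 genes include 0 in each comparison.

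How far samples of 1 genotype differ sets the scale for such a change. Cfl1 varied 1.58-fold between the lowest and highest WT sample, 2.96-fold in Het and 1.78-fold in KO. Over 14865 genes, 12.0% differed by more than 7.91-fold among the 3 WT samples alone, 10.5% among the Het samples and 7.10% among the KO samples. The within-genotype SD of Cfl1 on the log2 scale was 0.54, against a median of 0.45 over all genes. Ranges of this size among samples of 1 genotype occurred for many other genes. The study picked Cfl1 for its difference between genotypes in these libraries, so its smaller ranges are no separate support.

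Cfl2, the cofilin of muscle that is also made in testis, had 350, 292 and 322 normalized counts in WT, 406, 233 and 331 in Het and 380, 358 and 346 in KO. The highest and the lowest value were both in Het samples. KO against WT gave a log2 fold change of 0.17 (SE 0.17, 95% interval −0.24 to 0.59, limma adjusted p = 0.700), which leaves out a change of the size of the cutoff. Its within-genotype SD of 0.25 on the log2 scale was above that of 15.3% of genes, so Cfl2 was among the steadier genes.

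Dstn, which encodes ADF, had 400, 225 and 188 normalized counts in WT, 360, 200 and 210 in Het and 223, 304 and 223 in KO. WT replicate 1 and Het replicate 1 were the highest, and all 3 genotypes overlapped. The log2 fold change of KO against WT was −0.05 (95% interval −0.85 to 0.75, limma adjusted p = 0.961), and 0.27 without WT replicate 1.

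Summed over the 3 genes, cofilin/ADF counts were 770, 531 and 522 in WT, 776, 461 and 563 in Het and 741, 752 and 729 in KO. The KO sums lay within the range of the Het sums and below the highest WT sum. Within this sum Cfl1 made up 2.57%, 2.55% and 2.40% in WT, 1.22%, 6.06% and 3.95% in Het and 18.5%, 12.0% and 21.9% in KO. Cfl2 and Dstn supplied 78.1% to 88.0% of the sum in KO. Cfl1 thus went from the lowest mean level of the 8 detected members in WT and Het to the 4th highest in KO, between Dstn and Tesk1.

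**Figure D3:**
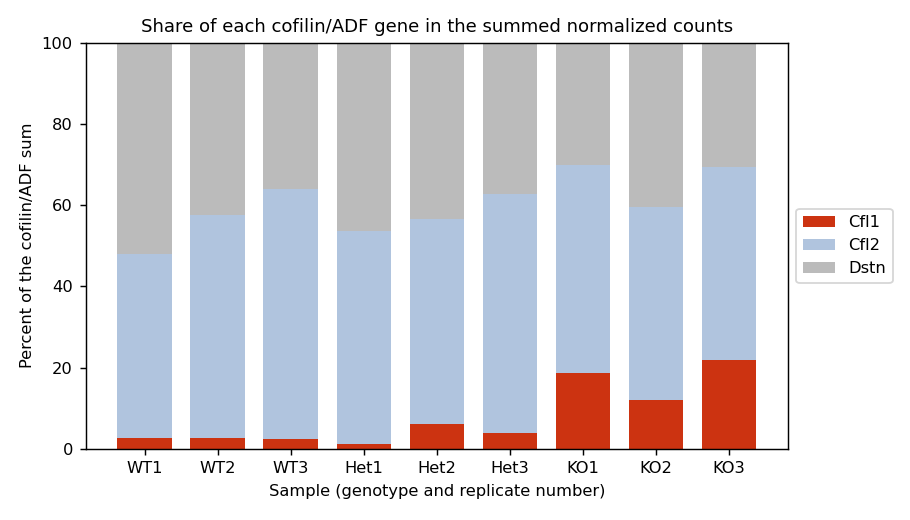
Share of Cfl1, Cfl2 and Dstn (percent, y axis) in the summed normalized counts of the 3 genes in each sample (x axis). Cfl1 made up 12.0% to 21.9% in the KO samples and 1.22% to 6.06% in the WT and Het samples.

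The mean of each measured kinase was lower in KO than in WT, and the samples of the 2 genotypes overlapped for each. Limk1, a LIM kinase, had 106, 43.4 and 67.6 normalized counts in WT, 48.2, 56.8 and 63.5 in Het and 38.7, 67.7 and 54.5 in KO. WT replicate 1 was the highest of all, and without it the log2 fold change of KO against WT went from −0.37 (SE 0.40, limma adjusted p = 0.712) to −0.05. Limk2, the second LIM kinase, had 40.9, 27.0 and 31.9 in WT, 22.7, 30.7 and 39.2 in Het and 16.3, 21.3 and 33.1 in KO. The 2 lowest values were in KO, yet KO replicate 3 was above 2 WT samples. Its log2 fold change of −0.52 (SE 0.35, 95% interval −1.37 to 0.34, limma adjusted p = 0.643) was the largest among the 7 other members.

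Tesk1 had 160, 101 and 103 normalized counts in WT, 80.3, 88.5 and 102 in Het and 81.6, 134 and 71.5 in KO. Of the Het samples, 2 were below each WT sample and the third lay between WT replicates 2 and 3. Its log2 fold change was −0.36 in KO against WT (SE 0.33, limma adjusted p = 0.682) and −0.40 in Het against WT (SE 0.26, limma adjusted p = 0.779), and −0.15 in KO against WT without WT replicate 1. Tesk1 supplied 44.9% to 60.2% of the summed counts of the 3 measured kinases in the 9 samples. Its 3′ end overlaps Cd72 on the other strand, a limit on these counts given below.

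Among the phosphatases, Ssh2 carried 95.0% to 98.2% of the summed counts in every sample. Ssh2 had 1679, 1189 and 1530 normalized counts in WT, 1654, 1458 and 1394 in Het and 1207, 1688 and 1438 in KO. The genotypes overlapped throughout, and the log2 fold changes were −0.02 in KO against WT, 0.05 in Het against WT and −0.07 in KO against Het. The 95% interval for KO against WT ran from −0.53 to 0.49. Ssh1, the most studied slingshot phosphatase, had 58.2, 41.5 and 52.1 in WT, 60.5, 47.5 and 39.2 in Het and 22.3, 89.0 and 29.5 in KO. KO replicates 1 and 3 were the 2 lowest of the 9 samples and KO replicate 2 was the highest, a 3.99-fold range within KO. The log2 fold change of KO against WT was −0.35 (SE 0.53, limma adjusted p = 0.792) and −0.94 without KO replicate 2 (limma adjusted p = 0.812).

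Kinase counts summed to 307, 172 and 203 in WT, 151, 176 and 204 in Het and 137, 223 and 159 in KO, so the genotypes overlapped. Divided by the cofilin/ADF sum, they gave ratios of 0.399, 0.324 and 0.388 in WT, 0.195, 0.382 and 0.363 in Het and 0.184, 0.297 and 0.218 in KO. Each KO ratio was below each WT ratio, while the Het ratios spanned nearly the whole range. The divisor holds Cfl1, which was high in KO, so this gap depends on the Cfl1 difference and is no separate result. The ratio of phosphatase to kinase counts was 5.66 to 7.80 in WT, 7.02 to 11.3 in Het and 7.95 to 9.22 in KO. These ratios are descriptions, and both rest on the same member values given above.

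For the 7 members other than Cfl1, the largest absolute log2 fold change in the 21 comparisons was 0.52, the smallest unadjusted p was 0.174 and no 2 genotypes were without overlap. In Het against WT, 0 of the 8 members were called by limma, as were 0% of all genes, with edgeR also calling 0 genes and DESeq2 33. None of the 8 had an unadjusted p-value under 0.05 there, against 475 of 14216 genes (3.34%), and none was without overlap, against 13.3% of genes. The median log2 fold change over the 8 members was −0.20 in KO against WT, −0.05 in Het against WT and −0.03 in KO against Het, beside medians of 0.02, 0.01 and −0.00 over all genes tested.

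Transcripts of 3 members share 50-base stretches with other genes in the sense direction or, within the last 500 bases, as the reverse complement. This bears on how their counts can be read. Cfl1 (ENSMUSG00000056201) lies on the plus strand of chromosome 19 of GRCm38 from 5490455 to 5495201. Snx32, on the minus strand, overlaps it by 2967 bases, and 305 of the 451 stretches of 50 bases in the last 500 bases of Cfl1 occur as the reverse complement in other transcripts. Snx32 had 21.0, 9.65 and 8.69 normalized counts in WT, 0, 19.6 and 12.7 in Het and 5.15, 17.4 and 12.5 in KO. These KO values overlap with WT, unlike those of Cfl1. Mus81, a nuclease gene upstream of Cfl1, ranged from 33.1 to 76.3 with no separation of the genotypes. Of all 2305 stretches of the Cfl1 transcript, 210 (9.11%) also occur in processed pseudogenes, of which none had a row in the table. The authors had removed pseudogenes, so any reads counted on these copies cannot be seen.

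Tesk1 (chromosome 4, 43441939 to 43448064, plus strand) is overlapped by 1603 bases of Cd72 on the other strand, and 424 of its 451 last stretches occur there as the reverse complement. Cd72, known as a B cell surface protein, had 504, 1380 and 1866 normalized counts in WT, 261, 1703 and 2052 in Het and 1105, 1424 and 1406 in KO. Its low values were in WT replicate 1 and Het replicate 1, the samples in which Tesk1 had its highest value and 80.3. Whether counting used the strand was not given in the sources used here. Reads of Tesk1 and Cd72, and of Cfl1 and Snx32, therefore cannot be told apart with certainty. The level and share of Tesk1 and the kinase sums and ratios given above carry this limit. Tesk2 (chromosome 4, 116720948 to 116805956) shares 356 of its 2984 stretches with other genes and overlaps Ccdc163 on the same strand over 30259 bases. Ccdc163 had 215 to 404 normalized counts, and Toe1, which overlaps Tesk2 on the other strand, had 59.4 to 173. At Cfl2, the overlapping non-coding gene 1700081N11Rik had 4.95 to 18.3 normalized counts, and the genes Gm10369 within Limk1 and Gm11948 within Limk2 had at most 1.93 and 0.859.

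**Figure D4:**
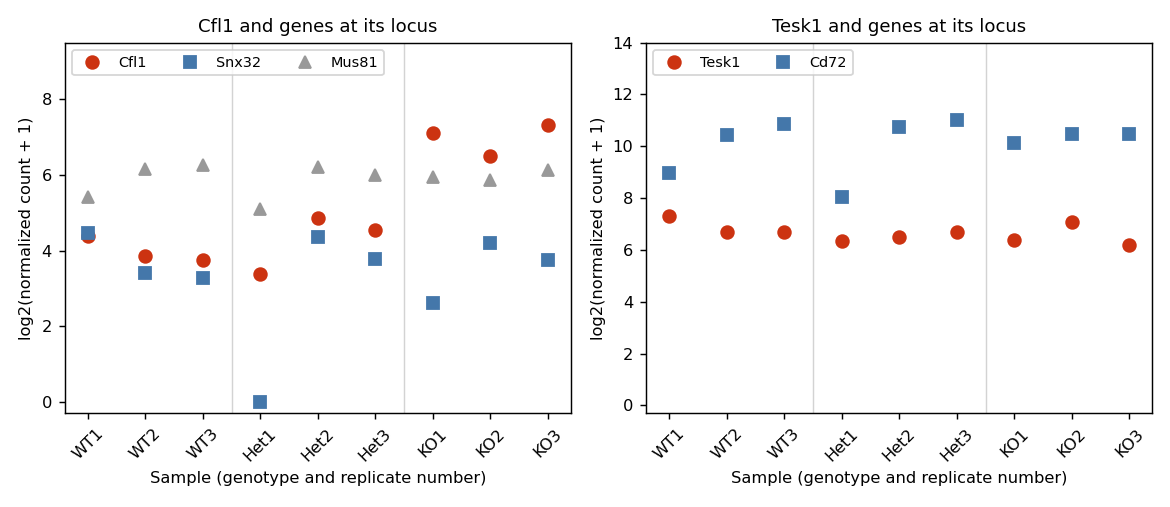
Levels on the scale of log2(normalized count + 1) (y axis) in each sample (x axis) for Cfl1 with Snx32 and Mus81 (left) and for Tesk1 with Cd72 (right). Cfl1 is high in the 3 KO samples while Snx32 and Mus81 are not, and Cd72 is lowest in WT replicate 1 and Het replicate 1.

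The other members lie apart from one another. Cfl2 is on chromosome 12 (54858809 to 54862877, minus strand), Dstn on chromosome 2 (143915320 to 143943324, plus), Limk1 on chromosome 5 (134656039 to 134688598, minus) and Limk2 on chromosome 11 (3344256 to 3409189, minus). Ssh1 is on chromosome 5 (113937094 to 113993894, minus), Ssh2 on chromosome 11 (77216287 to 77460220, plus) and Ssh3 on chromosome 19 (4261668 to 4269180, minus). RefSeq (GRCm38.p6) gives 15 promoter windows for the 10 genes, each of 300 bases. Of these, 13 held more CpG pairs than the median of 7 over 32851 promoters. The Cfl1 window held 22 CpG pairs and the Ssh1 window 39.

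The pattern over the 9 samples was compared with that of Cfl1 for 14864 genes, by the root mean square difference of log2(normalized count + 1) after each gene's own mean was subtracted. The 5 closest were the small nuclear RNA gene Gm24525 (difference 0.79), Stx18 (0.81), Gm43496 (0.83), Gm26814 (0.87) and Mtmr2 (0.89), against a median of 1.51 over all genes. They lie on chromosomes 5, 5, 1, 6 and 9, none on that of Cfl1. Stx18, a syntaxin of the endoplasmic reticulum, had 53.2, 37.6 and 40.6 normalized counts in WT, 25.5, 35.4 and 137 in Het and 150, 128 and 149 in KO. It differed from Cfl1 in Het replicate 3, which reached the KO level. Mtmr2, a phosphoinositide phosphatase, had 19.8, 21.2 and 18.3 in WT, 19.8, 13.0 and 31.7 in Het and 64.4, 48.4 and 50.9 in KO. The KO samples were above each other sample, as for Cfl1. None of the 5 was called in KO against WT (limma adjusted p = 0.176 to 0.610), and the genes were selected for this pattern.

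**Figure D5:**
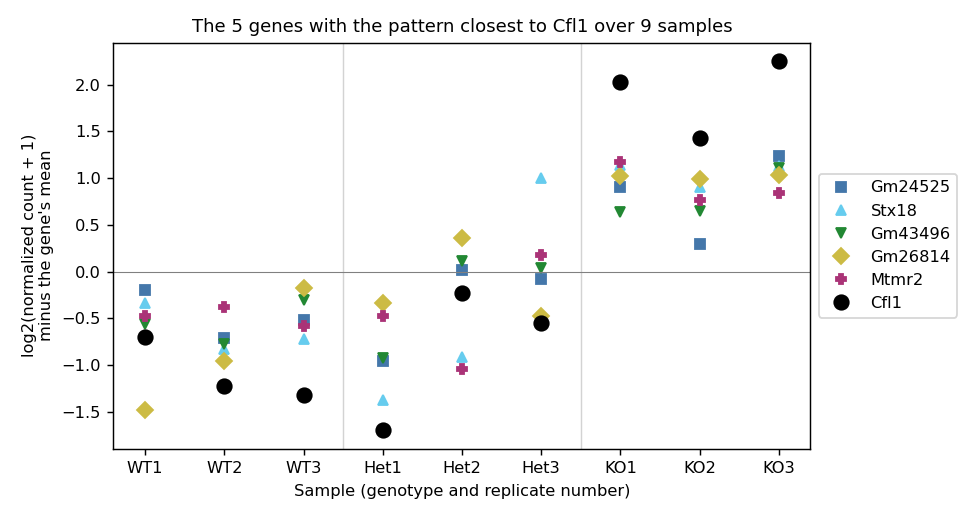
Centred levels, log2(normalized count + 1) minus each gene's mean over the 9 samples (y axis), for Cfl1 and the 5 genes closest to it, in each sample (x axis). The 3 KO samples have the highest values of Cfl1, and Stx18 is also high in Het replicate 3.

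Further genes of the pathway were read from 5 lists with 40 genes, of which 37 were tested in each comparison. None was called. In KO against WT 26 were higher and 11 lower, with 1 at an unadjusted p-value under 0.05, and in KO against Het 29 were higher and 8 lower, with 1. In Het against WT 19 were higher and 18 lower, with 0. Over all genes tested, 51.4%, 49.7% and 50.5% were higher in KO against WT, KO against Het and Het against WT, and 8.07%, 3.56% and 3.34% had an unadjusted p-value under 0.05. The share of the pathway genes at that level was thus no larger than the share of all genes. Some genes counted as higher in KO than in WT were far lower in WT replicate 1 than in WT replicates 2 and 3. Examples are Ppp1cc (32.2, 2310 and 1970 in WT) and Pfn2 (135, 537 and 549). Cotl1, counted as lower, was highest in WT replicate 1 (215, 112 and 106 in WT). The counts of higher and lower genes were not repeated without that sample, so they do not show a rise over the pathway. KO and WT did not overlap for 8 of the 37 pathway genes, 6 higher and 2 lower, beside 19.9% of all genes, so the gaps between groups given for single genes below are near what the whole table holds.

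Among relatives of cofilin with an ADF-homology domain (Twf1, Twf2, Gmfb, Gmfg, Cotl1, Dbn1 and Dbnl), 5 of 7 were higher in KO than in WT (median log2 fold change 0.23). Twf2, which encodes the actin monomer-binding twinfilin-2, had 0, 38.6 and 36.7 normalized counts in WT, 30.2, 32.6 and 32.8 in Het and 42.1, 55.1 and 42.9 in KO. Each KO sample was above each other sample, and KO against Het gave a log2 fold change of 0.53 (unadjusted p = 0.0446, limma adjusted p = 0.973). Of the cofactors that help cofilin take filaments apart, 5 of 6 were tested, 4 of them higher in KO than in WT with a median of 0.46. Coro1c was the 1 lower cofactor, with each KO sample below each WT sample (log2 fold change −0.45, limma unadjusted p = 0.0905). By the mean over all 9 samples, though not within WT alone, the most abundant were Coro1b, a coronin (200), and Cap2, a cyclase-associated protein (166). Coro1b was at 183 ± 123 in WT and 220 ± 28.2 in KO, and Cap2 at 157 ± 116 and 167 ± 36.1. Cap2 had 23.5 in WT replicate 1, while its other WT values, 222 and 227, were above each KO value.

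The GTPases and kinases upstream of the LIM and TES kinases numbered 11, of which 9 were higher in KO than in WT (median 0.32) and none reached an unadjusted p-value under 0.05. Rock1, a kinase that activates LIM kinases, was at 537 ± 151 in WT and 578 ± 25.2 in KO. Cdc42, a GTPase upstream of the PAK kinases, was at 356 ± 33.8 in WT, 479 ± 95.2 in Het and 484 ± 82.8 in KO, with each Het and KO sample above each WT sample. In KO against WT its log2 fold change was 0.43 (SE 0.20, limma adjusted p = 0.612). Among other phosphatases and binding partners 6 of 9 were higher (median 0.25). Ppp3ca, a catalytic subunit of calcineurin, which can activate slingshot phosphatases, had 1306, 1306 and 1628 normalized counts in WT and 1957, 1793 and 1813 in KO. All 3 KO values were above the WT values, with a log2 fold change of 0.40 (unadjusted p = 0.0465, limma adjusted p = 0.610).

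Actin and the other profilins were the partners of cofilin on the list. Of 5 genes, 3 were lower in KO than in WT (median −0.36). Actb, the cytoplasmic β-actin, had 2464, 2096 and 2202 normalized counts in WT, 1516, 2069 and 1736 in Het and 1535, 2094 and 1634 in KO. The KO and Het samples were below each WT sample, by a log2 fold change of −0.37 in KO against WT (SE 0.18, limma adjusted p = 0.615). Actg1 ranged from 54.1 to 1926 within WT and from 48.1 to 87.1 in KO, and its KO and WT samples overlapped.

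Markers of the cells in the testis were read beside the difference in Cfl1. All 4 elongating spermatid markers (Tnp1, Tnp2, Prm1 and Prm2) were abundant in every sample, and their summed counts were 233289 to 249362 in WT, 179063 to 214894 in Het and 123388 to 199672 in KO. Each KO sum and each Het sum was thus below each WT sum. The 5 spermatocyte markers (Sycp1, Sycp3, Hormad1, Spo11 and Piwil1) summed to 3738 to 4838 in WT, 3874 to 6070 in Het and 5394 to 6540 in KO, with KO above WT and overlapping with Het. None of the markers of these 2 lists was called in KO against WT, though Tnp2 (log2 fold change −0.80), Prm2 (−1.01), Sycp1 (0.76) and Sycp3 (0.71) had unadjusted p-values of 0.00354 to 0.0118. For the other 9 of 11 marker lists, the KO and WT sums overlapped. The Sertoli cell markers ranged from 4475 to 5050 in WT and from 3716 to 6644 in KO, the macrophage markers from 189 to 341 and from 247 to 299, and the endothelial markers from 41.5 to 60.7 and from 43.8 to 68.7. The Leydig cell markers ranged from 2549 to 4447 in WT and from 2282 to 3305 in KO, the spermatogonia markers from 60.8 to 86.7 and from 81.3 to 90.2, the round spermatid markers from 5442 to 7374 and from 3022 to 8266, the peritubular and smooth muscle markers from 268 to 435 and from 235 to 372, and the erythrocyte markers from 927 to 1243 and from 853 to 1148. KO replicate 2 held the lowest KO sums of both spermatid lists and the highest KO sum of the Sertoli cell markers. A sum can hide a single marker. Of the 7 Sertoli cell markers, 3 were higher and 4 lower in KO than in WT. Wt1, a transcription factor of Sertoli cells, had 9.90, 17.4 and 29.0 normalized counts in WT, 168, 180 and 116 in Het and 155, 199 and 32.2 in KO. Each Het and KO sample was above each WT sample, with a log2 fold change of 2.48 in KO against WT (unadjusted p = 0.0163, limma adjusted p = 0.610) and of 3.07 in Het against WT (unadjusted p = 0.000306, limma adjusted p = 0.544). A gap from WT without overlap was found for 19.9% of all genes in KO and for 13.3% in Het. The epididymal genes Lcn5, Lcn8 and Adam7 were at 0 in all samples. The part of these markers in the difference of Cfl1 was not tested.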

How the data were processed

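RNA came from whole testis without the tunica albuginea, and QuantSeq 3′ libraries gave 50-base reads. According to the submitters' notes and the study's methods, the authors trimmed reads with Trim Galore 0.4.5, aligned them with HISAT2 2.1 to GRCm38, counted genes with StringTie 1.3.3 and removed pseudogenes. In the deposited signal values, the authors had divided each sample's gene counts by its DESeq2 size factor (normalized counts). In every sample 100% of values were whole reads within 0.01 read, so reads were recovered. The read length set when counting was not given, so a recovered read may not equal 1 sequenced read. Detection limits cover counting error only, and intervals of fold changes are limma's 95% intervals.

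Each pair of genotypes was compared with limma 3.58.1 (eBayes with a trend, R 4.3.3) on log2(value + 1) over genes that reached 10 in 3 or more of the 6 samples, with Benjamini-Hochberg adjustment over all genes. Cutoffs are the authors'. Alternatives were edgeR 4.0.16 and DESeq2 1.42.0 on recovered reads, other filters, pseudocounts and scalings, all 9 samples in 1 fit, no trend, a replicate block, and leaving out each sample. The functions were tested on simulated data. All members were named. Pathway genes were named at an unadjusted p-value under 0.05 or, where a list had none, as the 2 with the highest mean over all 9 samples. A few more were named to show the part of WT replicate 1 or a change in the other direction. The 5 genes closest in pattern to Cfl1 and genes at or overlapping the members' loci were named too. Genes at these loci without a row or at 0 in all samples were left out. Members and lists were chosen with earlier results of these data known. Values were handled with Python 3.11.15.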

Additional observations from a re-analysis of the deposited data

How the results depend on the processing

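Over 379 refits of the members under alternatives, 3 were called, all of Cfl1 and named above. Cfl1 kept its direction in KO against WT (log2 fold change 2.70 to 3.22) and in KO against Het (2.29 to 3.02), with adjusted p-values over the alternatives that kept all samples and used no block of at most 0.224 and 0.611. In KO against Het, leaving out single samples gave adjusted p-values of 0.180 to 0.989 for Cfl1. Scaling by reads counted moved 1 of 24 group means of the members by over 1 SD (Cfl2 in KO, from 361 to 383). The number of genes called in KO against WT, 5 in the main test, was 2 with a filter at 50, 104 with DESeq2, 3 with all 9 samples in 1 fit, 13 with no trend and 0 to 55 when single samples were left out (55 without WT replicate 1, 12 without KO replicate 1, 1 when KO replicate 3 was dropped, and 0 for each of the other 3). In Het against WT, 0 became 3 with no filter, 1 with a filter at 50, 2 with a pseudocount of 5, 1 with TMM scaling, 33 with DESeq2, 3 with all 9 samples, 6 with no trend and 0 to 5 when single samples were left out (5 for WT replicate 1, 3 for Het replicate 2). In KO against Het, 8 became 4 with a filter at 50, 46 with DESeq2, 4 with all 9 samples, 15 with no trend and 0 to 40 when single samples were left out (40 for Het replicate 2, 4 for Het replicate 1, 1 for KO replicates 2 and 3, 0 for Het replicate 3 and KO replicate 1). The edgeR test on the recovered reads called 5, 0 and 7 genes. The cause of these changes was not tested. With a replicate block, 0, 0 and 0 genes were called in the 3 comparisons, and the adjusted p of Cfl1 was 0.703 in KO against WT and 0.985 in KO against Het. Replicate numbers showed no clear pairing of the samples. Correlations of deviations ran from −0.14 to 0.19 for the same number and from −0.24 to 0.19 for different numbers, and not every sample correlated best with its own number. With 3 samples per genotype, these correlations cannot exclude a pairing. With 13 to 16 reads for Cfl1 in WT, counting error limits the size of its fold change.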
